A study of Arabidopsis thaliana with 10 samples.

Results

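Small RNAs of whole pollen were compared between Arabidopsis thaliana plants that carried pMGH3::RTL1-Myc and untransformed plants. The 2 pMGH3::RTL1 libraries and the 2 WT Col-0 libraries made up 4 of the 10 small RNA libraries of the study, and they were chosen by genotype label alone. RTL1 is an RNase III-like protein that cleaves double-stranded RNA, and here its genomic sequence with a Myc tag was placed under the promoter of MGH3, a histone H3 gene of the male germline that is strongly active after the first pollen mitosis. Each pMGH3::RTL1 library came from an independent homozygous line of the third generation after transformation. The 2 pLAT52::RTL1 libraries, in which the same tagged protein was driven by the LAT52 promoter, served as a second point of comparison. That promoter is active in late microspores and afterwards mainly in the vegetative cell. All 3 groups were Col-0 plants grown under long days in a greenhouse, all carried the endogenous RTL1 gene, and only the RTL1 groups carried a transgene. Each group held 2 biological replicates.

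A pollen grain consists of a large vegetative cell and the sperm cells enclosed within it. Plant small interfering RNAs are cut from double-stranded precursors by Dicer-like proteins. Those of the RNA-directed DNA methylation pathway are made from RNA polymerase IV transcripts by DCL3, are mostly 24 nucleotides (nt) long and guide methylation of transposable elements (TEs). Lengths of 21 and 22 nt are typical of DCL4 and DCL2, and most microRNAs are cut from hairpin transcripts by DCL1. RTL1 acts on near-perfect duplexes of RNA before the Dicers do.

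The values were deposited per locus and per read length, as reads divided by their number of genomic hits and scaled by a total set by the authors for each library, and are called signal here. Length 18 to 30 nt was summed per locus, and 32932 loci were listed in the 4 libraries. The summed signal was 8672909 and 8060209 in pMGH3::RTL1, against 3743342 and 6817523 in WT Col-0, with 8174263 and 5517928 hit-weighted reads behind it in pMGH3::RTL1 and 8700508 and 6289385 in WT Col-0. The libraries of pMGH3::RTL1 were therefore higher in total signal without being deeper. Because of this, the scale of the signal bears on each count below: dividing by the summed signal, by microRNA genes or by mapped reads gave a median log2 change over the tested loci of -0.63, -0.68 and -0.69 in place of 0.08, and a median ratio scale gave 0.00. Loci that averaged 12 or more hit-weighted reads over the 6 libraries were tested on log2(signal + 1) with limma, and a call required a Benjamini-Hochberg adjusted p below 0.05. Log2 changes on this scale understate the change of low loci.

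Small RNAs that match RTL1 itself were raised. The gene (AT4G15417, chromosome 4, 8821651 to 8823076) had a signal of 1023 and 302 in pMGH3::RTL1, against 4.30 and 11.9 in WT Col-0. Both pMGH3::RTL1 lines lay far above both WT Col-0 libraries, and the lines differed most at 21 nt, with 482 and 45.3 against 0 and 1.08 in WT Col-0. At 24 nt the lines were closer to each other, with 172 and 123 against 1.72 and 5.42 in WT Col-0 (log2 change 5.13 ± 0.44 SE, limma, adjusted p = 9.07e-08). In pLAT52::RTL1 pollen the 18 to 30 nt signal of RTL1 was 93.7 and 23.8. Reads of the transgene and of the endogenous gene cannot be told apart in these values. AT1G19880 (chromosome 1, minus strand, 6900337 to 6904155), which lies next to MGH3 (6904963 to 6906028) and points away from it, had 172 and 368 in pMGH3::RTL1, against 9.04 and 6.50 in WT Col-0 (log2 change 4.86 ± 0.63, limma, adjusted p = 0.0111). Its signal in pLAT52::RTL1 was 18.1 and 3.81, so only the lines with the MGH3 promoter were high. MGH3 itself had 20.7 and 20.5 in pMGH3::RTL1, against 19.1 and 14.1 in WT Col-0, and was not called (log2 change 0.31, limma, adjusted p = 0.621, with a negative sign on 3 of the 4 other scales).

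In the sum over 18 to 30 nt, 111 of 11529 tested loci were reduced in pMGH3::RTL1 (0.963%) and 55 were raised (0.477%). The TE genes had 62 reduced and 0 raised members of 3533 tested, with a median log2 change of -0.13. Protein-coding genes had 43 reduced and 25 raised of 6750, and pseudogenes 5 reduced and 3 raised of 334. In the remaining classes most calls on the deposited scale were raised. MicroRNA genes had 1 reduced and 15 raised of 143, snoRNA genes 0 reduced and 7 raised of 44, tRNA genes 0 reduced and 3 raised of 606, and other RNA genes 0 reduced and 2 raised of 102. No snRNA gene (13 tested) or rRNA gene (4 tested) was called. At an unadjusted limma p below 0.05, 869 loci of all classes were lower and 1693 higher, among them 357 and 71 TE genes, 0 and 197 tRNA genes, 0 and 37 snoRNA genes, 8 and 29 other RNA genes, 0 and 6 snRNA genes and 0 and 0 rRNA genes. By limma-voom on the hit-weighted reads 63 TE genes were reduced and 0 raised, and 0 tRNA, snoRNA, other RNA, snRNA or rRNA genes were reduced.

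The scale decided the raised calls far more than the reduced ones. Of the 111 reduced loci, 65 were also called on each of the 4 other scales, whereas of the 55 raised loci only RTL1 and AT1G19880, thus 2, were. Every called locus kept its direction on each of these scales. With 2 libraries a group, the calls also leaned on both transgenic lines: without pMGH3::RTL1 replicate 1, or without replicate 2, 1 of the 111 reduced loci and 0 of the 55 raised loci were still called, although all of them kept their direction. Without pLAT52::RTL1 replicate 1 or 2, which add only to the estimate of the spread, 39 and 45 of the reduced loci were called, and 93 were without WT Col-0 replicate 1.

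**Figure D1:**
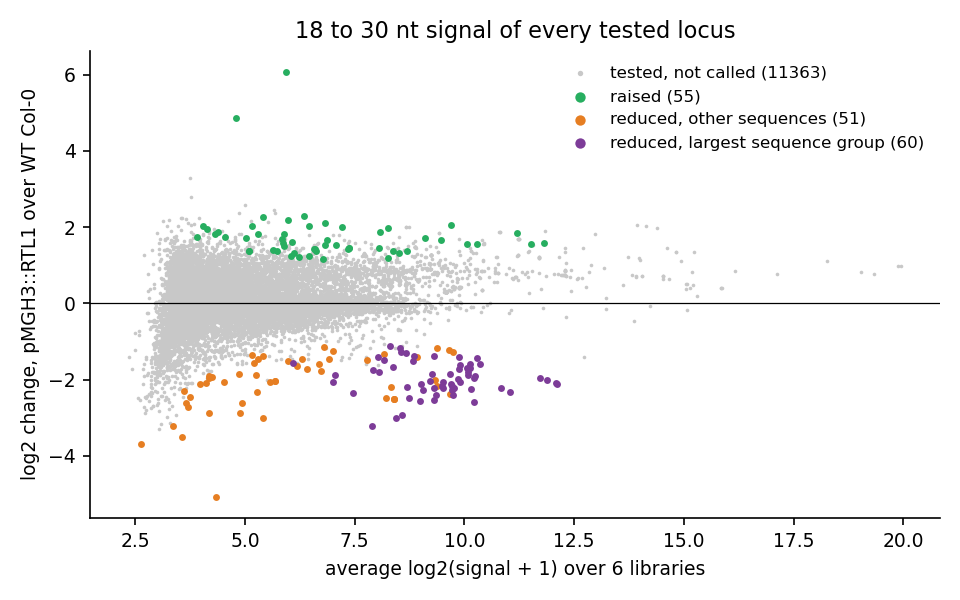
Log2 change of the 18 to 30 nt signal, pMGH3::RTL1 over WT Col-0 (vertical axis), against the average log2(signal + 1) over 6 libraries (horizontal axis), 1 point a locus. The 55 raised loci are green, the 60 reduced loci of the largest sequence group purple, the other reduced loci orange and the uncalled loci grey. The purple points lie together at high signal, and the 2 green points at the top are RTL1 and AT1G19880.

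As deposited, reduced loci were most numerous at 23 and 24 nt, an order that did not hold on each scale. At 23 nt, 167 of 3721 loci were reduced (4.49%) and 47 raised (1.26%), and at 24 nt 156 of 5737 were reduced (2.72%) and 68 raised (1.19%). At 21 nt only 25 of 2909 were reduced (0.859%) and 48 raised (1.65%), and at 22 nt 39 of 3001 were reduced (1.3%) and 27 raised (0.9%). TE genes contributed 17 reduced loci at 21 nt, 26 at 22 nt, 105 at 23 nt and 82 at 24 nt, and 0, 0, 2 and 6 raised loci. Protein-coding genes contributed 6, 11, 48 and 61 reduced loci at these lengths. Across the 4 lengths 229 loci were reduced at some length, of which 121 at 1 length alone and 17 at all 4, and 157 were raised, of which 130 at 1 length alone. No locus was reduced at one length and raised at another. At 21, 22, 23 and 24 nt, 98, 112, 356 and 73 loci were reduced on the scale of summed signal, and 78, 47, 77 and 1 on that of mapped reads, where 24 nt had the fewest. On the scale of microRNA genes 98, 126, 1560 and 382 were reduced, and on that of median ratios 90, 65, 154 and 162. Of the loci called as deposited, 1 of 156 at 24 nt, 25 of 25 at 21 nt, 37 of 39 at 22 nt and 75 of 167 at 23 nt held on all 4 other scales.

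**Figure D2:**
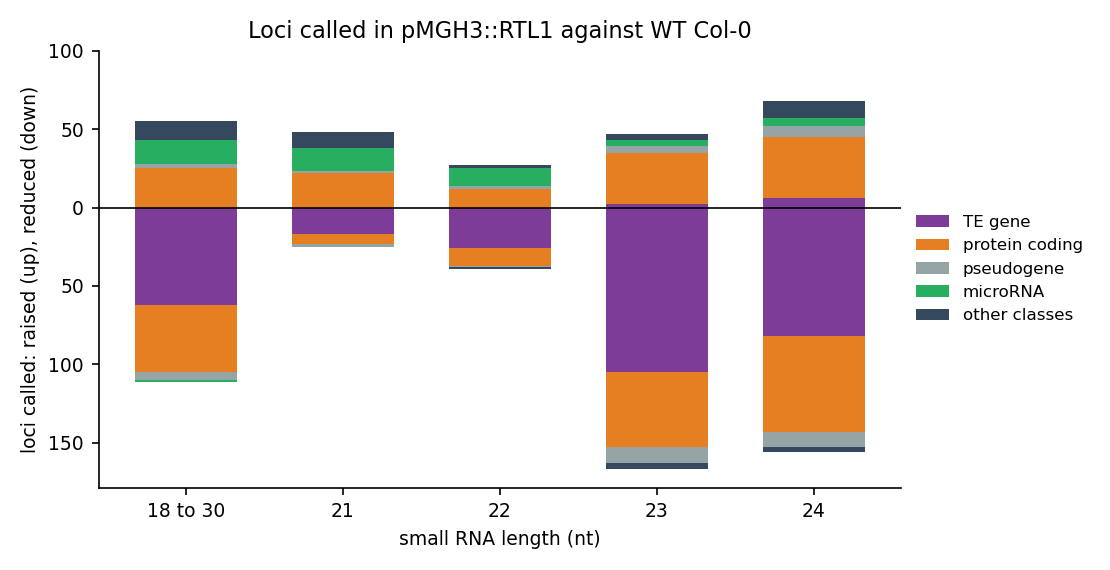
Number of loci called in pMGH3::RTL1 against WT Col-0 on the deposited scale (vertical axis, raised above 0 and reduced below it) for the 18 to 30 nt sum and for single lengths (horizontal axis), stacked by locus class. Reduced loci are most numerous at 23 nt (167) and 24 nt (156), and TE genes make up 105 and 82 of them.

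The class totals are descriptions with no test, and they too moved with the scale. TE genes together had 65034 and 62464 at 23 nt in pMGH3::RTL1, against 93318 and 89287 in WT Col-0, and 179029 and 182409 at 24 nt, against 256988 and 189085. The groups did not overlap at either length, but the WT Col-0 replicates differed more at 24 nt than the pMGH3::RTL1 mean differed from the lower of them. At 21 nt the TE gene total was 85397 and 92988 in pMGH3::RTL1 and 59390 and 88846 in WT Col-0, and at 22 nt it was 75756 and 83390 in pMGH3::RTL1 and 66124 and 87259 in WT Col-0. At 22 nt the groups overlapped, and at 21 nt the second WT Col-0 library lay between the pMGH3::RTL1 libraries. The log2 ratio of the mean TE gene totals was thus 0.27 at 21 nt, 0.05 at 22 nt, -0.52 at 23 nt and -0.30 at 24 nt, and the 21 and 22 nt ratios were negative on the scales of summed signal, microRNA genes and mapped reads. MicroRNA genes had 1367510 and 1630060 at 21 nt in pMGH3::RTL1, against 776553 and 974038 in WT Col-0. The log2 ratio of these means was 0.78 as deposited. It was 0.04 and -0.09 on the scales of summed signal and mapped reads, with overlapping groups. The microRNA scale sets the summed signal of microRNA genes equal in every library, so its value of 0.00 was largely fixed in advance. The highest single TE gene of WT Col-0, AT4G06477, had 69855 and 65082 over 18 to 30 nt in pMGH3::RTL1 and 49187 and 52874 in WT Col-0, so both pMGH3::RTL1 libraries were higher as deposited. The log2 ratio of its means was 0.40 as deposited but -0.37, -0.38 and -0.50 on the scales of summed signal, microRNA genes and mapped reads.

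**Figure D3:**
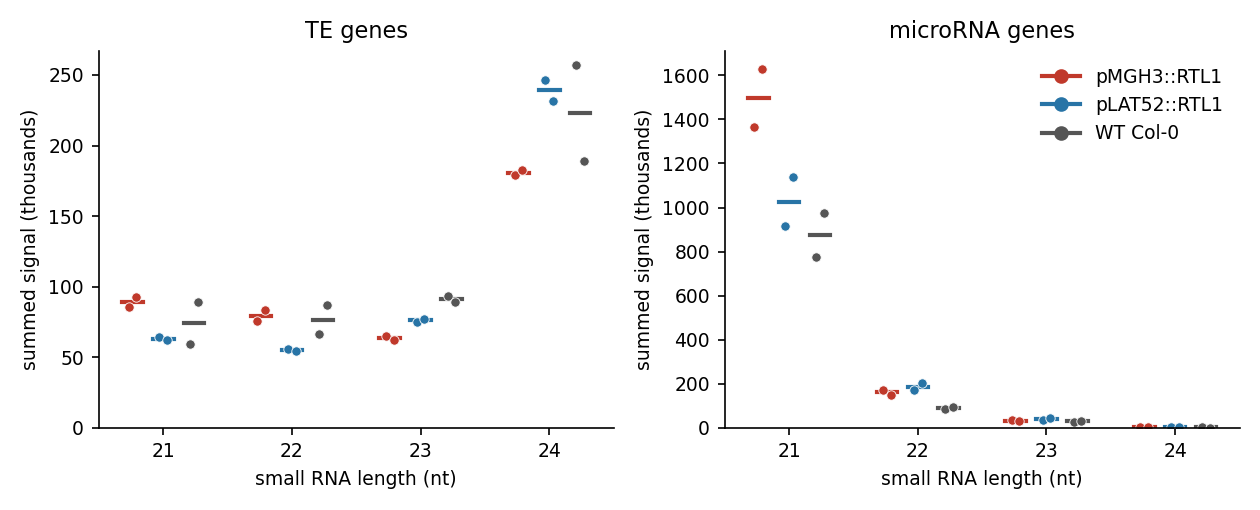
Summed signal (vertical axis, scaled as labelled) of locus classes at 21, 22, 23 and 24 nt (horizontal axis) in pMGH3::RTL1 (left of each set), pLAT52::RTL1 and WT Col-0 (right of each set), with each library as a point and the group mean as a bar. TE genes in pMGH3::RTL1 lie below WT Col-0 at 23 nt (65034 and 62464 against 93318 and 89287) and at 24 nt.

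Many of the reduced loci shared sequence with other reduced loci. When the 111 were joined wherever 2 of them shared at least 150 aligned bases at 80% identity, 60 (54.1%) fell into 1 group. Such links can form chains, so 2 members of the group need not share sequence directly. The group held 55 of the 62 reduced TE genes, the pseudogene AT3G30415 and 4 protein-coding genes (AT1G34400, AT4G16900, AT4G00140 and AT4G08760), and its median log2 change was -2.0. Its members lay on all 5 chromosomes (5, 20, 11, 15 and 9 loci from chromosome 1 to 5), with 7 of them in the first 70 kb of chromosome 2. All 60 had more signal at 24 nt than at 21, 22 or 23 nt. Reads that match several copies were divided among them, so the 60 loci are not 60 independent measurements.

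Of these 60 loci, 45 matched ATGP2, a family of Gypsy-class long terminal repeat retrotransposons, or the related ATGP2N. Of all tested loci, 50 aligned over at least 80% of 1 of 12 windows annotated as ATGP2 (6) or ATGP2N (6). The windows come from the study's methylation tables for other comparisons, which were read only in part. A stretch of 90 bases is shown to let the likeness of reduced loci of the group on chromosomes 2 and 4 be seen, of which AT2G01029 and AT4G03750 are among the 50 ATGP2-like loci and AT2G10770 and AT2G06480 are not. It was read from the TAIR10.1 assembly at chr2:4236739-4236828, plus strand, for AT2G10770, at chr2:29257-29346, minus strand, for AT2G01029, at chr4:1667971-1668060, plus strand, for AT4G03750 and at chr2:2570554-2570643, minus strand, for AT2G06480. Capitals mark bases that differ from AT2G10770.
AT2G10770: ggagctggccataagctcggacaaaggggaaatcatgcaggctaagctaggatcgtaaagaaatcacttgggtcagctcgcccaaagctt
AT2G01029: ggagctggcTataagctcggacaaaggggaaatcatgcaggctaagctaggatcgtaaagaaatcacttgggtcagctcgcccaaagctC
AT4G03750: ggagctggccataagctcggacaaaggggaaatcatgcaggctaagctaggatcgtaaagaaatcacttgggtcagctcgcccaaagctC
AT2G06480: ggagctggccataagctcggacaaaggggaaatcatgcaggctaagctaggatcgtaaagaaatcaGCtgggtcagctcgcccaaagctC
The other 3 loci differ from AT2G10770 at 2, 1 and 3 of the 90 bases. Values are given per locus, so which stretch of a locus the small RNAs came from was not analysed here.

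Summed over the 50 ATGP2-like loci, the 18 to 30 nt signal was 25436 and 22906 in pMGH3::RTL1, against 90573 and 108570 in pLAT52::RTL1 and 86590 and 93420 in WT Col-0. Both pMGH3::RTL1 lines were far below all other libraries, by 3.72-fold against the WT Col-0 mean as deposited and by 6.38- to 6.92-fold on the scales of summed signal, microRNA genes and mapped reads. At 23 nt the loci had 2506 and 2280 in pMGH3::RTL1, against 15106 and 15355 in WT Col-0 (6.36-fold lower), and at 24 nt 14598 and 12351 against 50430 and 40825 (3.39-fold lower). On the log2 scale the ratio at 23 nt was -2.67 as deposited and -3.45 to -3.58 on those 3 scales, and at 24 nt it was -1.76 as deposited and -2.56 to -2.73. At 21 nt they had 3398 and 3294 in pMGH3::RTL1 and 7515 and 14016 in WT Col-0, and at 22 nt 3800 and 4059 in pMGH3::RTL1 and 10849 and 16717 in WT Col-0. The groups did not overlap at any of these lengths, and the drop was steepest at 23 nt. The ratio of 23 to 24 nt signal over these loci was 0.172 and 0.185 in pMGH3::RTL1 and 0.300 and 0.376 in WT Col-0. In pLAT52::RTL1 it was 0.236 and 0.281, thus also below both WT Col-0 libraries. Over all TE genes that are not ATGP2-like it was 0.379 and 0.353 in pMGH3::RTL1, 0.323 and 0.353 in pLAT52::RTL1 and 0.378 and 0.497 in WT Col-0.

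Of the 50 loci, 45 were among the 111 reduced at 18 to 30 nt, and 12 of 49 were reduced at 21 nt, 23 of 49 at 22 nt, 49 of 49 at 23 nt and 48 of 50 at 24 nt. Their median log2 change was -1.97 at 18 to 30 nt, -1.31 at 21 nt, -1.42 at 22 nt, -2.82 at 23 nt and -1.88 at 24 nt, beside medians of 0.08, 0.48, 0.26, -0.14 and -0.05 over all tested loci. The 5 that were not called at 18 to 30 nt (AT2G06470, AT2G07660, AT2G15040, AT5G28263 and AT5G30102) were also lower, by log2 values between -1.41 and -0.88. AT5G28263, 1 of the 3 highest TE genes of WT Col-0, had 3763 and 3363 in pMGH3::RTL1, against 8489 and 10533 in WT Col-0. Of all TE gene signal, the 45 TE genes among the ATGP2-like loci held 5.33% and 4.72% in pMGH3::RTL1, against 18.1% and 22.3% in pLAT52::RTL1 and 16.3% and 17.2% in WT Col-0, a measure that does not depend on the scale of a library. The 3850 TE genes that are not ATGP2-like had 429390 and 439060 in pMGH3::RTL1 and 419111 and 423427 in WT Col-0. Of these, 21 of 3488 tested were reduced, beside 0.963% over all tested loci. With the largest sequence group also left out, 7 of 3474 tested TE genes were reduced. The log2 ratio of the means of the 3850 TE genes was 0.04 as deposited. It was -0.74, -0.75 and -0.88 on the scales of summed signal, microRNA genes and mapped reads, so its direction depended on the scale.

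**Figure D4:**
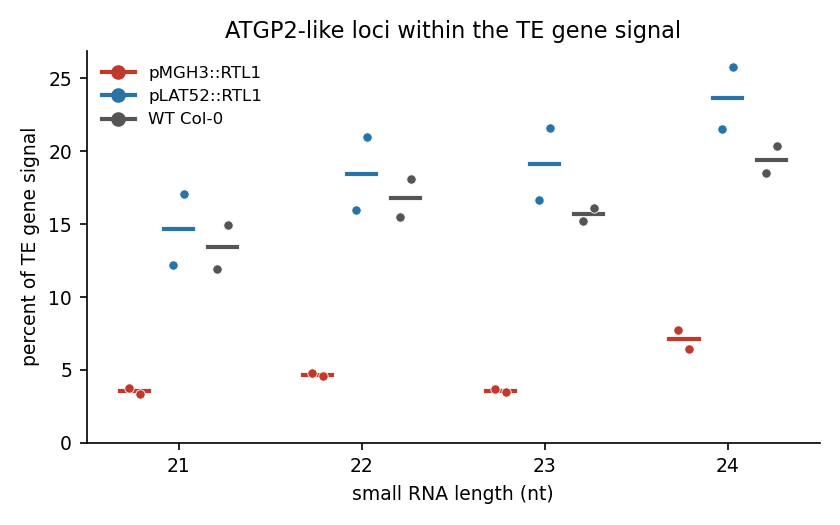
Percent of the TE gene signal that came from the 45 TE genes among the ATGP2-like loci (vertical axis) at 21, 22, 23 and 24 nt (horizontal axis) in pMGH3::RTL1, pLAT52::RTL1 and WT Col-0, with each library as a point and the group mean as a bar. The pMGH3::RTL1 libraries lie between 3.33% and 7.75% and every WT Col-0 library lies between 11.9% and 20.3%.

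Among the 60 loci of the largest sequence group, AT2G06480 (chromosome 2, 2570237 to 2570643) fell most. It did not align over 80% of an ATGP2 or ATGP2N window and so is not among the 50, which also holds for AT2G10770, AT2G10790 and AT3G30415. AT2G06480 had 56.6 and 43.9 in pMGH3::RTL1, against 468 and 477 in WT Col-0 (log2 change -3.22 ± 0.23, limma, adjusted p = 0.00395). At 23 nt it had 6.33 and 5.92 against 113 in each WT Col-0 library (log2 change -4.00). AT2G10770 (chromosome 2, 4236739 to 4237199), the sequence shown first above, had 9.40 and 7.11 at 23 nt in pMGH3::RTL1, against 157 and 164 in WT Col-0, the largest reduction of that length (log2 change -4.13 ± 0.27, limma, adjusted p = 9.84e-06). Replicates of both loci lay close together and the groups were widely apart. Of the 50 ATGP2-like loci themselves, AT2G06460, named after its values were seen, fell most over 18 to 30 nt, with 399 and 292 in pMGH3::RTL1, against 1905 and 2253 in WT Col-0 (log2 change -2.60 ± 0.27, limma, adjusted p = 0.00557). At 18 to 30 nt AT2G10770 had 106 and 80.6 against 687 and 737, and its neighbour AT2G10790 had 91.6 and 72.5 against 641 and 689 (log2 changes -2.93 and -3.01). The pseudogene of the group, AT3G30415, had 164 and 127 in pMGH3::RTL1, against 831 and 865 in WT Col-0 (log2 change -2.55).

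The TE gene with the largest reduction at 21 and 22 nt was not in the largest sequence group. AT1G50810 (chromosome 1, 18828868 to 18832972) had 69.8 and 30.7 at 21 nt in pMGH3::RTL1, against 302 and 557 in WT Col-0 (log2 change -3.12 ± 0.51, limma, adjusted p = 4.86e-05), and 77.8 and 39.9 at 22 nt against 424 and 590 (log2 change -3.14 ± 0.40, limma, adjusted p = 0.000144). Its pLAT52::RTL1 libraries were the highest, with 663 and 985 at 21 nt. The locus shares 4105 bases with AT1G50820 on the opposite strand, and without strand their reads cannot be told apart. It joined AT1G50820, AT1G35115 and AT2G15650 in a sequence group of 4 reduced loci with a median log2 change of -2.24. In WT Col-0 AT1G50810 had more signal at 21 and at 22 nt than at 24 nt (128 and 74.6), unlike the 60 loci of the largest group.

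**Figure D5:**
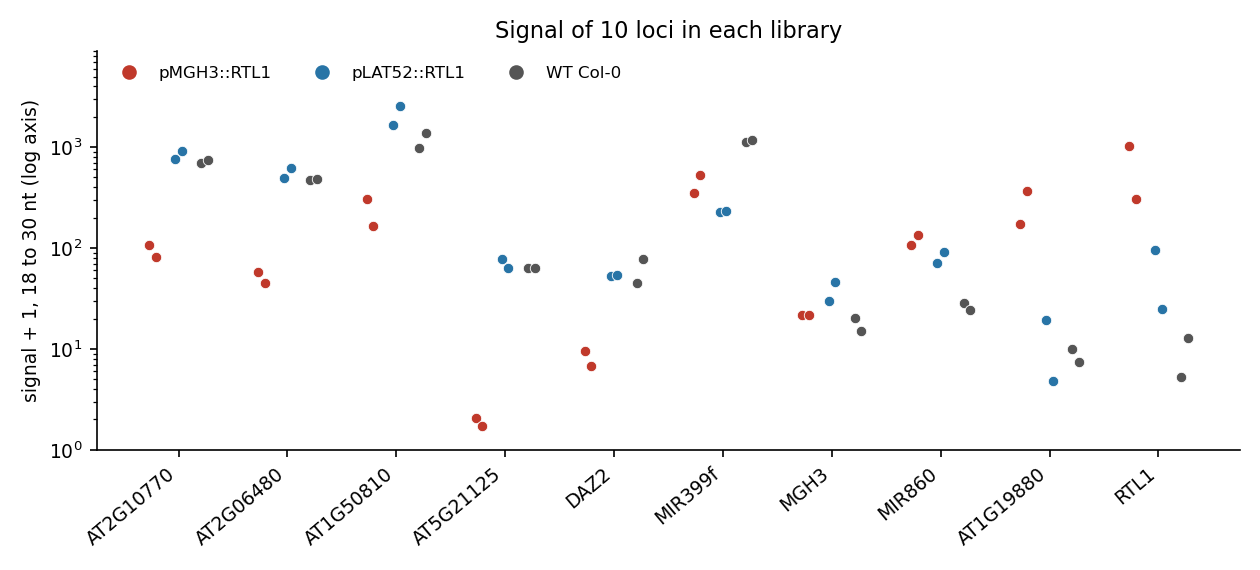
Signal + 1 over 18 to 30 nt (vertical log axis) of 10 loci (horizontal axis) in each library of pMGH3::RTL1 (red), pLAT52::RTL1 (blue) and WT Col-0 (grey). The 5 loci at the left and MIR399f are lower in both pMGH3::RTL1 libraries than in both WT Col-0 libraries, MGH3 differs little, and MIR860, AT1G19880 and RTL1 are higher.

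The reduced protein-coding genes outside the largest sequence group numbered 39, and 33 of them had most of their signal at 24 nt, 1 at 23 nt, 1 at 22 nt and 4 at 21 nt. The 3 with the largest change had very few reads left in pMGH3::RTL1. AT5G21125 (chromosome 5, 7185048 to 7185428) had 1.06 and 0.730 in pMGH3::RTL1, against 77.6 and 62.9 in pLAT52::RTL1 and 62.8 and 61.8 in WT Col-0. This is 69.6-fold lower than in WT Col-0, with a counting interval of 16.3 to 967 (log2 change -5.07 ± 0.29, limma, adjusted p = 0.00123), and at 24 nt it was at 0 in both lines, against 30.5 and 21.7 in WT Col-0, at least 6.90-fold lower when a floor of 3 reads per library is used. AT5G23400 was at 0 in both lines over 18 to 30 nt, against 12.9 and 10.8 in WT Col-0, at least 3.14-fold lower on the same floor. AT3G32036 was at 0 in both lines at 24 nt, against 18.1 and 13.0 in WT Col-0, at least 4.11-fold lower. Such floors cover counting error only.

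Some genes of this list shared sequence too. AT1G24851, AT1G25025, AT1G25112 and AT1G25180 formed a group of 4 with a median log2 change of -2.50. AT1G25025 stands for them with 106 and 113 in pMGH3::RTL1, against 579 and 677 in WT Col-0. Named after their values were seen, KTF1, an RNA-directed DNA methylation factor that associates with RNA polymerase V, had 4.24 and 1.46 in pMGH3::RTL1, against 18.1 and 23.8 in WT Col-0 (log2 change -2.60, limma, adjusted p = 0.0471), and DAYSLEEPER, a gene derived from a hAT transposase, had 10.6 and 14.6 against 70.4 and 61.6 (log2 change -2.31). In both genes every pMGH3::RTL1 library was below every WT Col-0 library, as in all 111 reduced loci. AT1G80120, chosen in the same way as an exception to the 24 nt lead, had 198 and 124 at 21 nt in pMGH3::RTL1, against 537 and 916 in WT Col-0. The pseudogenes AT3G10282 and AT2G46730, which also share sequence, had 1.59 and 2.92 and 5.84 and 5.84 in pMGH3::RTL1, against 22.4 and 17.9 and 29.3 and 21.7 in WT Col-0 (log2 changes -2.72 and -1.94).

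Genes expressed in sperm cells were looked at as a list, since the promoter acts there. Of 19 such genes 17 were tested at 18 to 30 nt, 1 was reduced by limma, 0 were raised and 10 were lower (2 lower and 1 higher at an unadjusted p below 0.05, and 1 reduced and 0 raised by voom), with a median log2 change of -0.19 beside 0.08 over all loci. Over all tested loci 0.963% were reduced at 18 to 30 nt, and 5171 of 11529 were lower. On the scales of summed signal, microRNA genes and mapped reads the list median was -0.90, -0.95 and -0.97. The median over all tested loci was -0.63, -0.68 and -0.69. On these scales 2, 7 and 1 genes of the list were reduced, beside 640, 2220 and 75 of the 11529 loci. At 22 nt 7 genes of the list were tested, 2 were reduced and 0 raised, beside 1.3% reduced over all loci tested at that length. DAZ2 (AT4G35280), a zinc finger repressor gene controlled by the germline regulator DUO1, was at 0 at 22 nt in both pMGH3::RTL1 libraries, against 20.2 and 34.7 in WT Col-0, at least 7.26-fold lower on the floor of 3 reads per library (log2 change -4.78 ± 0.59, limma, adjusted p = 0.000144). At 21 nt it had 3.18 and 5.84 against 15.9 and 35.8 (log2 change -2.22, limma, adjusted p = 0.0197). TET12, a tetraspanin gene of sperm cells, had 50.9 and 33.6 at 22 nt in pMGH3::RTL1, against 135 and 167 in WT Col-0 (log2 change -1.83, limma, adjusted p = 0.0217), and missed the threshold over 18 to 30 nt (limma, adjusted p = 0.0527). Both genes kept their direction on each other scale.

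Lists for other cells moved little by test. Of 12 vegetative cell genes 11 were tested and 0 were called by limma or voom (5 were higher at an unadjusted p below 0.05), with a median log2 change of 0.79 that was 0.06, 0.01 and -0.01 on the scales of summed signal, microRNA genes and mapped reads. Their summed signal was 19281 and 19682 in pMGH3::RTL1 and 7303 and 17762 in WT Col-0, so the low value was that of the first WT Col-0 library. Of 10 genes of green tissue and tapetum 5, all of green tissue, were tested and 0 were called by limma or voom (1 was higher unadjusted), and the list summed to 471 and 416 in pMGH3::RTL1 and 167 and 372 in WT Col-0. The tapetum genes A9 and GRP17 were at 0 in both pMGH3::RTL1 libraries. These are small RNAs that match the genes and not their mRNA levels, and their part in the other results was not tested. In whole pollen, fewer cells of a type and less RNA per cell cannot be told apart. Of 15 silencing genes 11 were tested and 0 were called by limma or voom at 18 to 30 nt (1 was higher unadjusted), with a median log2 change of 0.22 that was -0.49, -0.54 and -0.56 on the scales of summed signal, microRNA genes and mapped reads, and 2 were reduced on the scale of microRNA genes.

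Raised loci were mostly microRNA, snoRNA and protein-coding genes, and as stated above almost all of these calls depended on the scale. Of the 143 tested microRNA genes 136 were higher as deposited and 7 lower (43, 51 and 52 lower on the scales of summed signal, microRNA genes and mapped reads), with a median log2 change of 1.01 that was 0.28, 0.23 and 0.22 on the scales of summed signal, microRNA genes and mapped reads and 0.94 on the median ratio scale. The microRNA scale holds the total of these genes equal in every library, so it cannot show a change of that total. MIR860 (chromosome 5, 9098791 to 9098916) had 106 and 134 in pMGH3::RTL1, against 27.5 and 23.3 in WT Col-0 (log2 change 2.19 ± 0.25, limma, adjusted p = 0.00738). It lies within FC1, a ferrochelatase gene, on the same strand, whose 151 and 180 against 40.9 and 37.4 includes its reads. MIR858a, whose microRNA targets MYB factors, had 2189 and 1044 in pMGH3::RTL1, against 333 and 400 in WT Col-0, and MIR172e, of the family that targets AP2-like genes, had 639 and 614 against 107 and 235 (log2 changes 2.05 and 1.97). MIR396a and MIR396b, of the family that targets growth-regulating factors, had 404 and 368 and 1088 and 1227 in pMGH3::RTL1, against 119 and 163 and 375 and 356 in WT Col-0. As deposited, no library of WT Col-0 reached the lowest pMGH3::RTL1 library for any of these 5 genes. This held for all 55 raised loci, so it adds nothing to the calls.

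The exception among microRNA genes was MIR399f, of the phosphate starvation family that targets PHO2. It had 346 and 530 in pMGH3::RTL1, against 1117 and 1161 in WT Col-0 (log2 change -1.41 ± 0.26, limma, adjusted p = 0.0449). In pLAT52::RTL1 it was lower still, with 228 and 233, so both RTL1 groups lay below WT Col-0. Mature sequences of the reduced gene and of 5 raised genes are shown as RefSeq places them on TAIR10.1, with the seed (bases 2 to 8) in capitals.
miR399f: uGCCAAAGgagauuugcccgg
miR860: uCAAUAGAuuggacuauguau
miR858a: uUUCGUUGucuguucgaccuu
miR172e-3p: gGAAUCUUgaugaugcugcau
miR396a-5p: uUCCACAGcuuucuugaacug
miR396b-5p: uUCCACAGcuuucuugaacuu
The miR396 pair shares the seed UCCACAG, and no other seed shown is shared. All 6 are 21 bases long, and the 15 raised microRNA genes had most of their signal at 21 nt (12) or 22 nt (3).

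Of 8 TAS genes, the sources of trans-acting siRNAs, 6 were tested, 2 were raised and 0 reduced, with a median log2 change of 1.29 that was between 0.50 and 0.56 on the scales of summed signal, microRNA genes and mapped reads. Over all tested loci 0.477% were raised. TAS3, which yields siRNAs against auxin response factors, had 688 and 604 in pMGH3::RTL1, against 236 and 264 in WT Col-0 (log2 change 1.36), and TAS3b had 80.1 and 67.9 against 28.0 and 14.2 (log2 change 1.83). The highest gene, TAS1A, had 62868 and 74267 against 25924 and 27539 and was not called at 18 to 30 nt. Replicates of each TAS gene named were closer to each other than to the other group. Among snoRNA genes, all 44 tested were higher as deposited. So were 6358 of all 11529 tested loci, 602 of 606 tRNA genes, all 13 snRNA genes and all 4 rRNA genes. On the scales of summed signal, microRNA genes and mapped reads 3, 3 and 4 snoRNA genes were lower. AT2G35387 had 279 and 175 in pMGH3::RTL1, against 47.3 and 41.2 in WT Col-0 (log2 change 2.30). The adjacent snoRNA genes AT2G20721 and AT2G20722 had 147 and 80.3 and 335 and 257 in pMGH3::RTL1, against 24.5 and 19.5 and 74.9 and 59.6 in WT Col-0. The 3 raised tRNA genes, AT4G32265, AT4G31075 and AT2G25400, had between 257 and 272 in pMGH3::RTL1 and between 75.7 and 121 in WT Col-0. Their values were near-equal, and whether they are copies that share reads was not tested.

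A few other loci were raised over 18 to 30 nt or at a single length. The pseudogene AT3G32990 (chromosome 3, 13534183 to 13536711) had 2950 and 4304 in pMGH3::RTL1, against 1034 and 953 in WT Col-0 (log2 change 1.84 ± 0.29, limma, adjusted p = 0.0259), nearly all of it at 23 nt, where it had 2691 and 4028 against 905 and 810. At 24 nt the same locus had 41.3 and 40.3 against 57.4 and 47.4, so it was not higher at that length. Its 18 to 30 nt signal in pLAT52::RTL1 was 3372 and 3890, within the range of the pMGH3::RTL1 lines. PSEUDOSRKA had 2996 and 1874 in pMGH3::RTL1, against 817 and 779 in WT Col-0, and shares 415 bases with AT4G21366 on the opposite strand. AT2G25015 had 146 and 131 against 58.7 and 60.2, and shares 202 bases with MIR836. NF-YC6, a subunit of a CCAAT-binding factor, had 32.9 and 19 at 23 nt in pMGH3::RTL1, against 6.45 and 3.25 in WT Col-0 (log2 change 2.21).

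Set against pLAT52::RTL1 in the same fit, 288 of 11529 loci were lower in pMGH3::RTL1 (2.5%) and 122 higher (1.06%). TE genes had 91 lower and 20 higher, protein-coding genes 184 lower and 76 higher, and microRNA genes 0 lower and 11 higher (5 and 32 at an unadjusted limma p below 0.05, 0 and 10 by voom). Of the 50 ATGP2-like loci 47 were lower in pMGH3::RTL1 than in pLAT52::RTL1, and by limma 0 were called, and 0 had an unadjusted p below 0.05, between pLAT52::RTL1 and WT Col-0, where their median log2 change was 0.16. AT5G21125 was again the locus lowest in pMGH3::RTL1 (log2 difference -5.23). AT1G55535 and AT2G38500 followed with 3.18 and 8.76, and 42.4 and 49.7, in pMGH3::RTL1, against 294 and 108, and 1436 and 994, in pLAT52::RTL1. In WT Col-0 these genes had 15.1 and 14.1, and 18.9 and 58.5, so in both the pLAT52::RTL1 libraries stood apart from the other 4. MIR843 had 2058 and 2315 in pMGH3::RTL1, against 367 and 31.5 in pLAT52::RTL1, with 853 and 1100 in WT Col-0, and AT2G07791 had 3212 and 4238 against 591 and 126, with 1103 and 1658 in WT Col-0. For MIR843 and AT2G07791 the pLAT52::RTL1 libraries were low and unlike each other. Both pMGH3::RTL1 libraries of these loci were also above both WT Col-0 libraries as deposited.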

How the data were processed

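Small RNA of pollen was sequenced, and the authors mapped trimmed reads to TAIR10 with Bowtie (version not given in the sources used here). The deposited signal per locus, class and length is hit-weighted reads on a scale the authors name RPM, but its values sum to 3743341 or more per library, and whole reads could not be recovered for nearly all values. A read was worth 0.430 to 1.46 signal units. Hit-weighted reads were 5517928 to 10349594 per library, which sets the precision of low loci. Loci were fitted by limma (3.58.1, under R 4.3.3) after log2(signal + 1), with a variance trend, over the 6 libraries of the 3 groups, without a block, per length and for the sum. Replicate numbers did not pair the libraries (correlations 0.082, -0.003 and 0.061). The replicates of each RTL1 group were independent lines, but nothing shows how separately the plants of any replicate, WT Col-0 included, were raised. P-values therefore measure the spread between these samples, which may be partly technical. Copies were aligned with BLAST 2.17.0, and 32762 of 33217 locus IDs matched RefSeq TAIR10.1.

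Members, lists and tests were chosen with earlier results of these data known. Named loci were the 3 called, non-overlapping loci of largest change per class and direction, 2 per single length, 3 per direction against pLAT52::RTL1, called list members, the transgene genes and the 3 highest loci of each class in WT Col-0. The fit was tested on simulated data. Alternatives were 4 scales, pseudocounts of 0.1 and 5, no filter, no trend, voom, 4 libraries, identical loci counted once, a replicate block and each library left out. The 4 libraries of the nrpd1a-3 comparison were not used here.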

Additional observations from a re-analysis of the deposited data

Results flagged for a closer look

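The results below were noted because the effect of RTL1 against WT Col-0 differed between the constructs, as tested by the direct comparison of pMGH3::RTL1 with pLAT52::RTL1 in the limma fit, in which 288 loci were lower and 122 higher. Values are log2 differences, pMGH3::RTL1 minus pLAT52::RTL1. AT2G06480, AT2G10790 and AT2G10770, of the largest sequence group, differed by -3.44, -3.19 and -3.16, the pseudogene AT3G30415 of that group by -2.87 and the TE gene AT1G50810 by -3.19. AT5G21125, AT5G23400 and AT3G32036 differed by -5.23, -4.19 and -3.70, all with few reads in pMGH3::RTL1, and the pseudogenes AT3G10282 and AT2G46730 by -3.33 and -2.48. DAZ2, of the sperm cell list, differed by -2.74. RTL1 and AT1G19880 differed by 3.52 and 4.72 in the other direction, the pseudogene AT2G25015 by 1.49 and the snoRNA genes AT2G35387, AT2G20721 and AT2G20722 by 2.06, 1.84 and 2.04. For AT1G55535 (-4.81), AT2G38500 (-4.67), MIR843 (4.32) and AT2G07791 (3.75) the pLAT52::RTL1 libraries stood apart from WT Col-0 as well, and pMGH3::RTL1 was not called against WT Col-0.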

How the results depend on the processing

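With 2 libraries a group, depth and the scale of a library limited what could be called. Counts are reduced and raised loci. Over 18 to 30 nt (111 and 55), they were 640 and 15 scaled by summed signal, 71 and 15 without the variance trend and 48 and 8 with only 4 libraries; 2220 were reduced on the scale of microRNA genes and 168 on that of median ratios, and 2 were raised on that of mapped reads, 101 with voom and 87 with identical loci counted once. At 21 nt (25 and 48), the counts were 98 and 3 (summed signal), 98 and 4 (microRNA genes), 90 and 18 (median ratio), 78 and 2 (mapped reads), 0 and 0 (no filter), 12 and 5 (4 libraries), with 91 raised by voom and 82 with identical loci once. Without the filter, 375 and 1793 had an unadjusted limma p below 0.05 at 21 nt. At 22 nt (39 and 27), they were 112 and 2, 126 and 2, and 65 and 13 on the first 3 scales and 8 and 2 with no filter, 24 and 10 without trend, with 2 raised on mapped reads and 17 at a pseudocount of 0.1. At 23 nt (167 and 47), they were 356 and 1 (summed signal), 1560 and 5 (microRNA genes), 77 and 1 (mapped reads) and 80 and 3 (no filter), with 194 raised on the median ratio scale, 18 without trend and 22 with 4 libraries, and 109 reduced by voom. At 24 nt (156 and 68), they were 73 and 2 (summed signal), 382 and 2 (microRNA genes), 1 and 0 (mapped reads) and 77 and 9 (no filter), with 137 raised on the median ratio scale and 15 without trend. Against pLAT52::RTL1 (288 and 122), they were 1079 and 62 (summed signal), with 1524 lower on the scale of microRNA genes and 11 higher on mapped reads, 81 without trend and 303 with 4 libraries. The log2 ratios of the TE gene totals on the scales of summed signal, microRNA genes and mapped reads were -0.43, -0.49 and -0.54 at 21 nt, -0.68, -0.72 and -0.79 at 22 nt, -1.32, -1.31 and -1.45 at 23 nt and -1.16, -1.12 and -1.32 at 24 nt; a median ratio scale was not run for totals. The cause of each shift was not tested.

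A block on the replicate number, which does not pair the libraries, gave 97 reduced and 57 raised loci over 18 to 30 nt, 50 and 231 at 21 nt, 60 and 57 at 22 nt, 211 reduced and 89 raised at 23 nt, 168 and 103 at 24 nt, and 248 and 110 against pLAT52::RTL1. Leaving out 1 library gave 1 to 222 reduced and 0 to 1335 raised over 18 to 30 nt, 0 to 31 and 2 to 631 at 21 nt, 15 to 44 and 7 to 32 at 22 nt, 114 to 174 and 20 to 93 at 23 nt, 95 to 196 and 15 to 168 at 24 nt, and 0 to 456 and 0 to 331 against pLAT52::RTL1. Of the 44 called named values, 6 were called under all 18 alternatives. Only uncalled genes changed sign: AT2G38500 had log2 changes of -0.26, -0.31 and -0.32 on the scales of summed signal, microRNA genes and mapped reads and -0.34 to 1.24 when 1 library was left out (negative without WT Col-0 replicate 1, called and positive without WT Col-0 replicate 2), and MGH3 had -0.39, -0.44 and -0.46 on these scales.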
